A study of Homo sapiens with 8 samples.

Results

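The machinery that licenses replication origins and runs the replication fork was followed through 52 human genes in MM1.S cells, a plasma-cell line derived from multiple myeloma. The genes were chosen by name, as the loaders, helicases, polymerases and fork-protection factors of DNA replication, and all 52 were found among the 16295 genes listed and passed the filter that left 14164 genes for testing. RNA was sequenced after 24 h with MS177, MS177N1 or C24, each at 0.5 uM, or with the solvent DMSO, in 2 libraries per treatment and 8 in all. MS177 is a degrader that links EZH2, the enzyme with which Polycomb methylates histone H3, to the ubiquitin ligase receptor CRBN. MS177N1 is a related control compound that does not degrade EZH2, and C24 is an EZH2 inhibitor. Every group is the same line, so each result is of 1 cell line at 1 dose and 1 time, and nothing in the labels says whether the libraries of a group came from separate cultures. The p-values therefore measure the spread between these libraries only, which may be technical.

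DNA replication begins with licensing: the origin recognition complex (ORC) marks origins, and CDC6 and CDT1 load the ring-shaped MCM2-7 helicase there, while geminin (GMNN) holds CDT1 back once DNA synthesis has begun. The kinase CDC7 with its activator DBF4, together with MCM10, CDC45 and the GINS complex, then turns the loaded ring into an active helicase. Polymerase alpha with primase starts each strand, polymerases delta and epsilon extend it on the sliding clamp PCNA, and fork-protection factors keep unwinding and synthesis coupled. Many of these genes are known targets of E2F transcription factors and are expressed most around entry into S phase, so they are high in dividing cells such as myeloma lines.

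In MS177 against DMSO, 44 of the 52 genes fell, 1 rose and 7 were not called (limma, Benjamini-Hochberg adjusted p under 0.05 over 14164 genes). Among all genes tested 57.9% were called, 28.9% higher and 29.0% lower, so the 84.6% of members that fell stood beside a background in which falling genes were 29.0%. The median log2 fold change was -0.52 over the members and 0.004 over all genes tested, and the members ranged from -1.30 to 0.63. Most of the falls were moderate: TIPIN, UNG, MCM10 and DSCC1 (4 of the 52 genes) had log2 fold changes of -1 or lower. Among all genes tested, 784 of 14164 had a log2 fold change of -1 or lower. By role, 4 of 9 licensing genes, 13 of 14 helicase genes, 16 of 18 polymerase genes and 11 of 11 fork-protection genes fell. Their median log2 fold changes were -0.13 for licensing, -0.54 for helicase, -0.505 for polymerase and -0.57 for fork protection. The fork-protection group is broad and also holds RPA, chromatin assembly and uracil-removal genes. Differences between members in the size of a change are given as values and were not tested. A setting that removed a trend over transcript length and GC content covered the 12577 genes with both known. Their median was then -0.119, and 49 members and 41.0% of those genes were lower. Of the calls 37.8% were then higher, against 49.9% as reported. That setting also re-centred each library, and the part of re-centring in the shift was not tested. The 5 members that the setting added to those lower were ORC2, ORC3, CDT1, GINS3 and RFC1. Scaling by total reads moved the balance the other way, to 58.0% of all calls higher and 24.3% of all genes lower, with 42 members lower, 2 higher and a members' median of -0.435 beside 0.088 over all genes. In bulk RNA, fewer cells in S phase and less RNA per cell cannot be told apart.

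**Figure D1:**
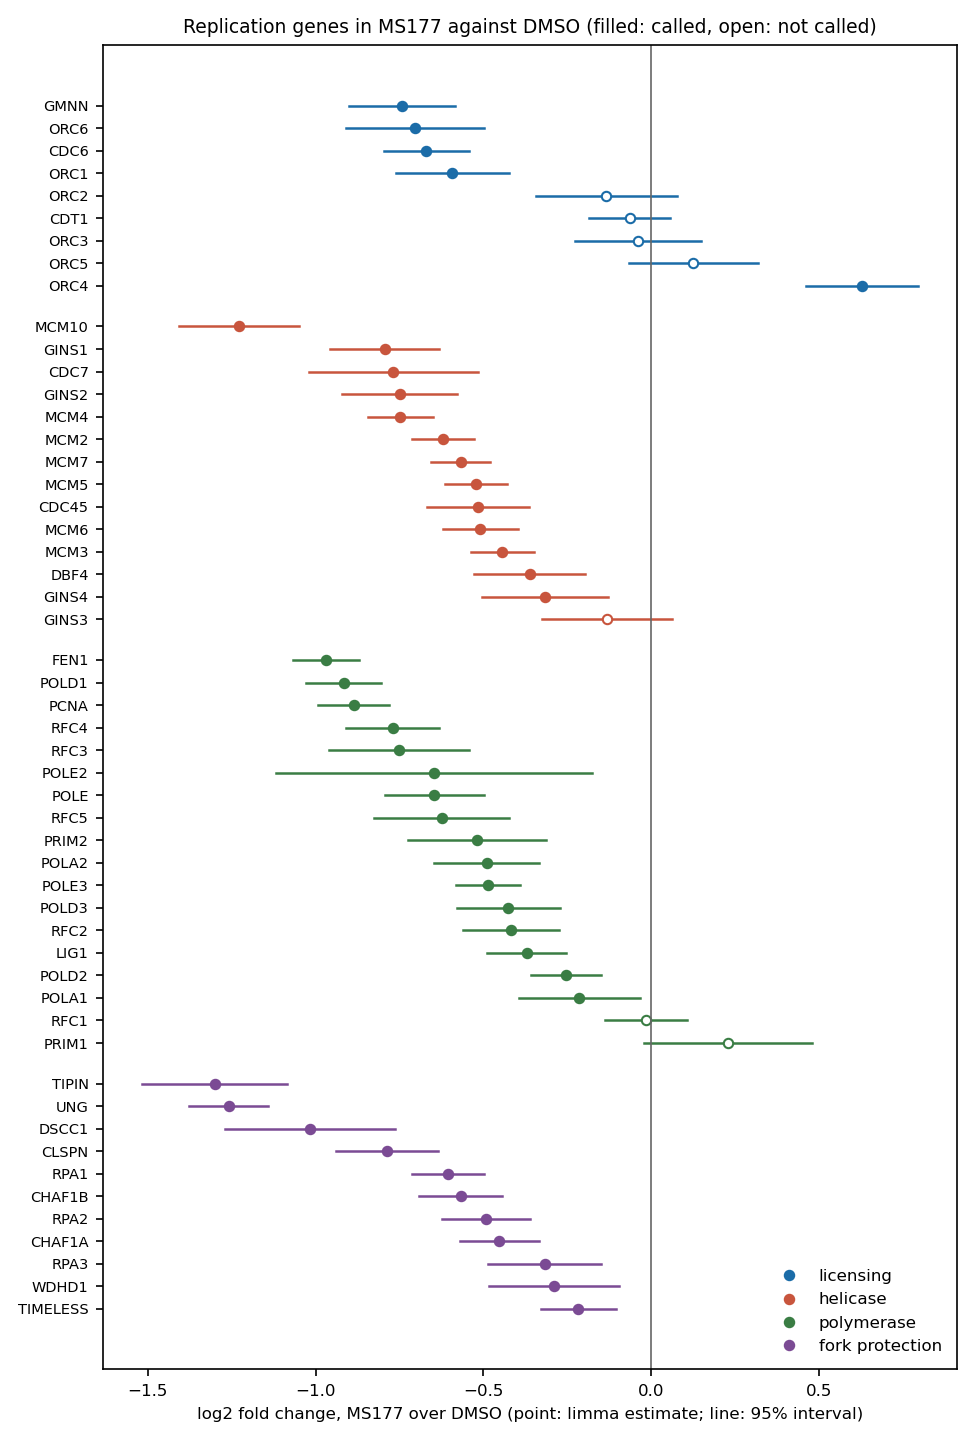
Log2 fold change of each of the 52 genes in MS177 against DMSO (x axis; positive is higher in MS177), grouped by role, with the 95% interval from limma as a line. Filled points were called at an adjusted p under 0.05 and open points were not; ORC4 is the only filled point to the right of 0, and TIPIN, UNG and MCM10 lie farthest to the left.

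Library by library, both MS177 libraries lay below all 6 other libraries for 44 of the 52 genes and above all 6 for 1 gene, ORC4; the shares among all genes tested were 31.7% below and 33.2% above. The MS177 range met the range of the other 6 libraries for 7 genes, which were ORC2, ORC3, ORC5, CDT1, POLA1, PRIM1 and RFC1. These counts are not over the same genes as the calls: POLA1 was called lower but met the other libraries, and GINS3 lay below them but was not called. The 52 genes together took 0.470% and 0.478% of the reads of the MS177 libraries, 0.662% and 0.662% with MS177N1, 0.658% and 0.659% with C24 and 0.647% and 0.663% with DMSO. Helicase genes made up the largest share, 0.206% and 0.208% in MS177 against 0.289% and 0.297% in DMSO. Licensing genes made up the smallest, 0.0410% and 0.0397% in MS177 against 0.0456% and 0.0486% in DMSO.

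**Figure D2:**
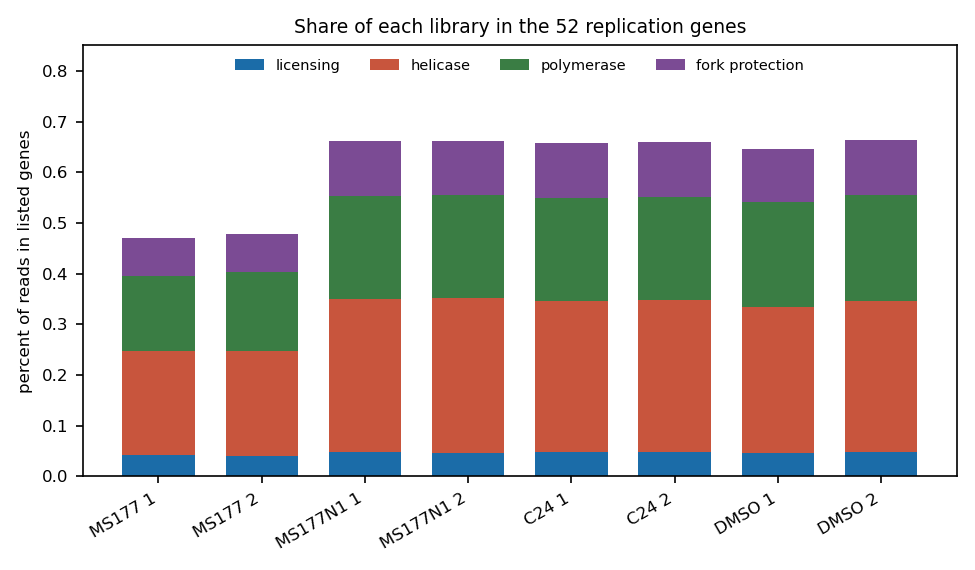
Percent of each library's reads in listed genes that fell in the 52 replication genes (y axis, from 0), stacked by role for the 8 libraries. The MS177 libraries hold 0.470% and 0.478%, and the other 6 hold between 0.647% and 0.663%.

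What the members share in sequence was read from their promoters. RefSeq (GRCh38.p14) gave a window of 250 bases before to 50 bases after a start site for 45 of the 52 genes; MCM4, MCM5, GINS4, POLD3, RPA2, RPA3 and DSCC1 were not matched. The E2F forms searched, on both strands, were TTTGGCGC and 3 more, with TTTCCCGC as well as TTTCGCGC and lastly TTTGCCGC, and forms may overlap where 1 reads into another on the opposite strand. At least 1 of them lay in 22 of the 45 genes (48.9%), against 6.68% of 9763 tested genes with a window and 3.99% of all 27305 genes with one. Of the members with a window, a form was present in 19 of 37 that fell, in 3 of 7 that were not called and in 0 of the 1 that rose. The CCAAT box, searched as CCAAT, was present in 57.8% of the members and 43.4% of tested genes, and the E-box CACGTG in 22.2% and 12.9%. The cell-cycle element TTTGAA was present in 6.67% of the members and 13.9% of tested genes. The 120 bases from 110 before to 10 after the start are given for 4 genes that fell and 3 that were not called, each with such a form; capitals mark the match on either strand (the MCM6 run holds 2 overlapping matches).
MCM6 (chr2:135876434-135876553, minus strand): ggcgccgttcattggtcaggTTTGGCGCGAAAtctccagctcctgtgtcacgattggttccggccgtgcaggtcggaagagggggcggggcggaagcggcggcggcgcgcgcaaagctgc
PCNA (chr20:5126613-5126732, minus strand): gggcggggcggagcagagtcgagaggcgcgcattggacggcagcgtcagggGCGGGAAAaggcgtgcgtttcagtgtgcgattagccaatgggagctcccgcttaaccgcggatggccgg
GINS2 (chr16:85688945-85689064, minus strand): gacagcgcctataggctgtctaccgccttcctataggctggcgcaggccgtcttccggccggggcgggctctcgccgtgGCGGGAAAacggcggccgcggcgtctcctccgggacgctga
MCM7 (chr7:100101388-100101507, minus strand): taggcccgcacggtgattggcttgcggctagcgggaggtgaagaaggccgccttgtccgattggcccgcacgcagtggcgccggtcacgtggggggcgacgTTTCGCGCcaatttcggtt
CDT1 (chr16:88803679-88803798, plus strand): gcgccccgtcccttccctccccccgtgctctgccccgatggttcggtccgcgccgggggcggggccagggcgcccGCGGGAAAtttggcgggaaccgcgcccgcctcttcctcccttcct
GINS3 (chr16:58392361-58392480, plus strand): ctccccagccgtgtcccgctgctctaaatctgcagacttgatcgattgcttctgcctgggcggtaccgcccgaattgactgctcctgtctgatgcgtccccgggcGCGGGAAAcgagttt
ORC3 (chr6:87590025-87590144, plus strand): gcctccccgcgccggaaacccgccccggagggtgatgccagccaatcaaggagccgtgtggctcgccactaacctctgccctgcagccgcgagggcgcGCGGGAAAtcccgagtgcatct
Of these, MCM6, PCNA, GINS2 and MCM7 fell, with the first matched base at -90, -59, -31 and -9 from the start. CDT1, GINS3 and ORC3 were not called, with the first matched base at -35, -5 and -12. A match is a run of letters and not a bound site, and PCNA and MCM7 have further start sites whose 120-base windows hold no match.

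Licensing genes did not move together. GMNN, the inhibitor of CDT1, had 793 and 829 normalized reads in the MS177 libraries, 1354 and 1199 with MS177N1, 1328 and 1384 with C24 and 1337 and 1376 with DMSO. Both MS177 libraries lay under every other library, and GMNN fell 1.67-fold in MS177 against DMSO (log2 fold change -0.74, SE 0.07, limma adjusted p = 3.78e-07). ORC6, the smallest ORC subunit, had 515 and 427 normalized reads in the MS177 libraries, 809.9 and 759 with MS177N1, 832 and 748 with C24 and 757 and 774 with DMSO. The highest MS177 library was under the lowest of the others, and ORC6 fell 1.63-fold (-0.705, SE 0.10, limma adjusted p = 1.24e-05). CDC6, the ATPase that brings MCM2-7 to ORC, had 1608.5 and 1598 normalized reads in the MS177 libraries, 2544 and 2499 with MS177N1, 2677 and 2544 with C24 and 2439 and 2668 with DMSO. The MS177 pair differed little and stood apart, a 1.59-fold fall (-0.67, SE 0.06, limma adjusted p = 1.04e-07).

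ORC1, the largest ORC subunit and the one whose level is regulated through the cell cycle in human cells, fell too (-0.59, SE 0.08, limma adjusted p = 9.83e-06), averaging 915 ± 36.4 normalized reads in MS177 and 1385 ± 165 in DMSO (SD, n = 2 each). ORC4, a subunit of the ORC core, was the 1 member that rose. It had 879.8 and 888.5 normalized reads in the MS177 libraries, 597 and 603 with MS177N1, 602.5 and 617 with C24 and 567 and 576 with DMSO, so both MS177 libraries were above every other library and the other 6 lay close together. ORC4 rose 1.55-fold (0.63, SE 0.08, limma adjusted p = 4.59e-06). The remaining core subunits were not called: ORC2 (-0.13, SE 0.10), ORC3 (-0.04, SE 0.09) and ORC5 (0.13, SE 0.09), and ORC3 turned to 0.05 when libraries were scaled by total reads.

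CDT1, the second MCM loader, was not called (-0.06, SE 0.06, 95% interval -0.19 to 0.06), and turned to 0.02 with total-read scaling. Its values, given although it was chosen for display after its level was seen, were 2006 and 1920.1 normalized reads in the MS177 libraries, 2028 and 2123 with MS177N1, 1997 and 2032 with C24 and 2064 and 2041 with DMSO. The MS177 pair overlapped the C24 pair and lay just below the MS177N1 and DMSO pairs. Beside it, CDC6 and GMNN were called lower, so the loading factors and their inhibitor did not share a call. With the trend over length and GC removed, CDT1 was called lower too (-0.141, limma adjusted p = 0.0164). Per kb of transcript, GMNN stood above CDT1 in every group, at 642.5 against 606 normalized reads per kb in MS177 and 1075 against 633 in DMSO. The lengths are those of GENCODE v29 principal transcripts, since the annotation used for counting is not given in the sources used here.

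The 6 subunits of the MCM2-7 ring, the motor of the replicative helicase, fell together. Their log2 fold changes lay between -0.75 (MCM4) and -0.44 (MCM3), with SEs between 0.04 and 0.05, and their limma adjusted p-values reached at most 5.15e-07. These are abundant transcripts: over the 6 genes the MS177 libraries held between 4818 (MCM6) and 7996 (MCM7) normalized reads, and the DMSO libraries between 6581 (MCM6) and 12848 (MCM4). For each of the 6, both MS177 libraries lay below all 6 others. The ratio of the highest to the lowest subunit per kb, MCM7 to MCM6, was 2.05 in MS177, 2.22 with MS177N1, 2.24 with C24 and 2.13 with DMSO. In MS177 the order below MCM2 had MCM3 before MCM4, and in the other groups MCM4 before MCM3.

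MCM10, a scaffold that helps turn the loaded ring into an active helicase, fell more than the ring. It had 546.5 and 485 normalized reads in the MS177 libraries, 1180.3 and 1253 with MS177N1, 1256 and 1224 with C24 and 1127 and 1295 with DMSO. Both MS177 libraries were far under every other, and MCM10 fell 2.34-fold in MS177 against DMSO (-1.23, SE 0.085, limma adjusted p = 6.1e-09). CDC45, which with GINS completes the active helicase, fell less (-0.52, SE 0.07).

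The GINS complex is a 4-subunit ring, and its subunits split. GINS1 had 588 and 615 normalized reads in the MS177 libraries, 1098 and 1140.5 with MS177N1, 1081 and 1110.4 with C24 and 989.5 and 1101 with DMSO. It fell 1.73-fold (-0.79, SE 0.08, limma adjusted p = 2.57e-07), with no overlap between MS177 and the rest. GINS2 had 452 and 502 normalized reads in the MS177 libraries, 768 and 780.3 with MS177N1, 846 and 852 with C24 and 806 and 798 with DMSO. It fell 1.68-fold (-0.75, SE 0.08, limma adjusted p = 9.34e-07), again with no overlap. GINS4 fell by less (-0.32, SE 0.09, limma adjusted p = 0.00605) and lost its call without the second DMSO library (-0.22, adjusted p = 0.0812). GINS3 was not called (-0.13, SE 0.09), although both of its MS177 libraries, at 549 and 525 normalized reads, lay just under the lowest of the others, 553.6 in DMSO.

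CDC7, the catalytic subunit of the kinase that fires loaded origins, had 269 and 327 normalized reads in the MS177 libraries, 480.5 and 430.2 with MS177N1, 441 and 382 with C24 and 489.8 and 523 with DMSO. It was the lowest-read of the named helicase genes, and both MS177 libraries lay under every other library, with a 1.70-fold fall (-0.77, SE 0.12, limma adjusted p = 3.99e-05). Its activator DBF4 fell by less (-0.36, SE 0.08).

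**Figure D3:**
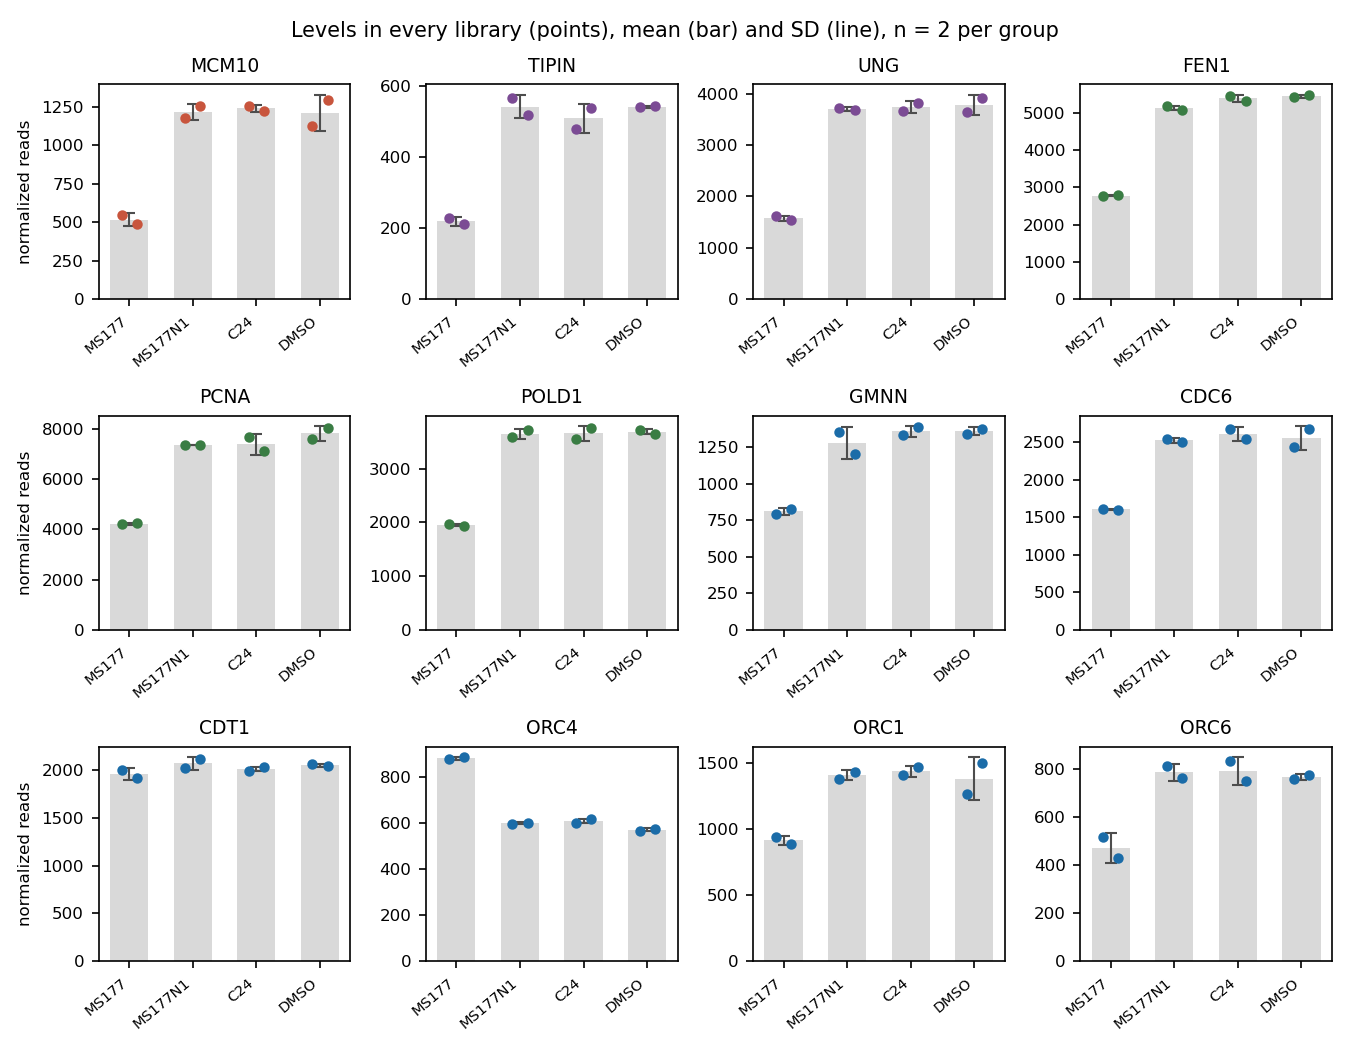
Normalized reads (y axes, each from 0) of 12 replication genes in the 8 libraries, in the order MS177, MS177N1, C24 and DMSO; points are libraries, bars the mean and lines the SD over 2 libraries. Colours give the role; ORC4 is higher in MS177, CDT1 lies between 1920.1 and 2123 in all 8 libraries, and the other 10 genes are lower in MS177.

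Among the polymerase genes the largest change was in a maturation enzyme. FEN1, the flap nuclease that trims Okazaki fragments, had 2768 and 2794.5 normalized reads in the MS177 libraries, 5180.5 and 5090.3 with MS177N1, 5457 and 5325 with C24 and 5422 and 5478 with DMSO. The MS177 pair differed little and lay far below the rest, a 1.96-fold fall (-0.97, SE 0.05, limma adjusted p = 1.01e-10). LIG1, the ligase that seals the trimmed fragments, fell by less (-0.37, SE 0.055). The ratio of FEN1 to LIG1 per kb was 1.95 in MS177, against 2.69 with MS177N1, 2.89 with C24 and 2.95 with DMSO.

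POLD1, the catalytic subunit of polymerase delta, had 1966 and 1939 normalized reads in the MS177 libraries, 3586 and 3718 with MS177N1, 3556 and 3757 with C24 and 3716 and 3653 with DMSO. It stood apart in MS177 with a 1.89-fold fall (-0.92, SE 0.05, limma adjusted p = 7.26e-10). The accessory subunits POLD2 (-0.25, SE 0.05) and POLD3 (-0.425, SE 0.07) fell by less, and POLD2 was the most abundant subunit per kb in every group. In polymerase epsilon the catalytic subunit POLE (-0.65, SE 0.07), POLE2 (-0.65, SE 0.22) and POLE3 (-0.49, SE 0.045) all fell. Without the trend and robust options POLE2 was not called (limma adjusted p = 0.0597). POLE2 was the lowest member of all, with 71.8 and 64.5 normalized reads in MS177 and 101 and 113 in DMSO, and lost its call without the second MS177 library (adjusted p = 0.074 by limma) or the second DMSO library (0.104).

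PCNA, the sliding clamp that holds the polymerases on DNA, had 4199 and 4260.1 normalized reads in the MS177 libraries, 7343 and 7341 with MS177N1, 7692 and 7101.5 with C24 and 7605 and 8036 with DMSO. It fell 1.85-fold (-0.89, SE 0.05, limma adjusted p = 6.23e-10), with the MS177 pair under all others. RFC4, a subunit of the clamp loader, had 956 and 1042 normalized reads in the MS177 libraries, 1775 and 1791 with MS177N1, 1765 and 1859 with C24 and 1726 and 1678 with DMSO. It fell 1.70-fold (-0.77, SE 0.065, limma adjusted p = 6.12e-08). Of the other clamp-loader subunits RFC3 (-0.75, SE 0.10), RFC5 (-0.62, SE 0.095) and RFC2 (-0.42, SE 0.07) fell, while the large subunit RFC1 was not called (-0.02, SE 0.06, 95% interval -0.14 to 0.11). RFC1 turned to 0.07 with total-read scaling. The loader that opens the clamp had 4 subunits lower and 1 not called.

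Polymerase alpha and primase, which lay down the primers, had the smallest median among the polymerases, -0.35 against -0.425 for delta and -0.65 for epsilon. PRIM2, the large primase subunit (-0.52, SE 0.10), and POLA2, the accessory subunit of polymerase alpha (-0.49, SE 0.07), fell. POLA1, the catalytic subunit, was just past the threshold (-0.21, SE 0.085, limma adjusted p = 0.0416), and its MS177 range met that of the other libraries, at 1604.9 against 1604.7 normalized reads. It was not called without the trend and robust options (limma adjusted p = 0.168), with only the 2 groups compared (0.103) or adjusted over all 6 comparisons (0.0803). PRIM1, the catalytic primase subunit, was not called (0.23, SE 0.12), with 723 and 895 normalized reads in MS177 and 646 and 728 in DMSO. POLA1 lost its call with total-read scaling and with any of 6 libraries left out (limma adjusted p of 0.053 to 0.364), the exceptions being the second MS177 and the first DMSO library. PRIM1 passed as higher without the first MS177 library (0.38) and with total-read scaling (0.315). Exons of POLA2 (53.7% of exonic bases) and PRIM1 (34.8%) overlap other genes in GENCODE v29, as do those of MCM2 (32.0%) and GINS4 (23.6%), so reads there could be shared with a neighbour.

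All 11 genes grouped under fork protection fell, with limma adjusted p-values of at most 0.0121. Of these, 5 serve fork protection and cohesion, 3 are RPA subunits and 3 serve chromatin assembly or uracil removal. TIPIN, the partner of TIMELESS in the complex that couples helicase to polymerase, had 228 and 210.4 normalized reads in the MS177 libraries, 565.5 and 518 with MS177N1, 480.1 and 537.5 with C24 and 539 and 543 with DMSO. The MS177 libraries were far under all 6 others, and the 2.46-fold fall was the largest among the 52 members (-1.30, SE 0.10, limma adjusted p = 2.48e-08). TIMELESS fell far less (-0.22, SE 0.05, limma adjusted p = 0.00208), averaging 2652 ± 107 normalized reads in MS177 and 3082 ± 28.6 in DMSO (SD, n = 2 each). The gap between the changes of these partners was not tested.

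UNG, which removes uracil from DNA, had 1611 and 1543 normalized reads in the MS177 libraries, 3727.5 and 3674 with MS177N1, 3657 and 3821 with C24 and 3638 and 3919 with DMSO. MS177 stood far below, a 2.39-fold fall (-1.26, SE 0.055, limma adjusted p = 3.89e-11). DSCC1, part of an alternative clamp loader tied to cohesion, had 419 and 570.5 normalized reads in the MS177 libraries, 1007 and 905 with MS177N1, 988.5 and 1013 with C24 and 959 and 1023 with DMSO. Its MS177 libraries spread widely but did not overlap the rest, and it fell 2.02-fold (-1.02, SE 0.12, limma adjusted p = 5.52e-06). CLSPN (claspin), a mediator between the fork and the checkpoint kinase CHEK1, had 617 and 628 normalized reads in the MS177 libraries, 1061 and 1139 with MS177N1, 1131 and 1114 with C24 and 1084 and 1063 with DMSO. It fell 1.72-fold (-0.79, SE 0.07, limma adjusted p = 1.39e-07).

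The single-stranded DNA binding protein RPA fell in its 3 subunits, RPA1 (-0.605, SE 0.05), RPA2 (-0.49, SE 0.06) and RPA3 (-0.32, SE 0.08). The chromatin assembly factors CHAF1A (-0.45, SE 0.06) and CHAF1B (-0.57, SE 0.06), which place histones behind the fork, fell as well. WDHD1, an adaptor of polymerase alpha at the fork, fell least but for TIMELESS (-0.29, SE 0.09, limma adjusted p = 0.0121), and lost its call without the first MS177 library (limma adjusted p = 0.106) or the second DMSO library (0.0613), and with total-read scaling (0.0664). Per kb, UNG was the most abundant of CHAF1A, CHAF1B and UNG in MS177N1, C24 and DMSO, and CHAF1A was in MS177.

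The comparisons with MS177N1 and C24 ask what a related compound without degradation, or an inhibitor, did at the same dose and time. In MS177N1 against DMSO none of the 52 genes was called, beside 0.0353% of all genes tested (5), and none had an unadjusted p under 0.05; limma-voom called 0 members as well, with 0 at an unadjusted p under 0.05. The log2 fold changes lay between -0.175 and 0.185, and for 51 of the 52 genes the 95% interval stayed within 0.5 of 0 on the log2 scale. POLE2, the lowest gene, was the exception (0.185, interval -0.29 to 0.66). Of all 14164 genes tested, 9347 had an interval within 0.5 of 0 and 718 had an unadjusted p under 0.05 by limma. The median SE was 0.072 over the members and 0.107 over all genes. In C24 against DMSO 0 of the 52 genes were called by limma, beside 0.0918% of all genes (13; 0.0212% higher and 0.0706% lower), and 2 had an unadjusted p under 0.05 (4 by limma-voom, which called 0). By limma the 2 were CDC7 (-0.30, SE 0.12) and MCM7 (0.10, SE 0.04), both with an adjusted p of 0.908. The 95% intervals stayed within 0.5 of 0 for 51 genes, with CDC7 the exception (-0.55 to -0.05). Of all 14164 genes tested, 9326 had such an interval with C24 and 762 had an unadjusted p under 0.05 by limma. A p above the threshold does not show that the compounds act as DMSO does, and the intervals bound only what was measured here.

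In MS177 against MS177N1, 44 members were lower and 3 higher, with a median log2 fold change of -0.55; all genes tested were called at 57.4%, 28.6% lower and 28.8% higher. In MS177 against C24, 45 members were lower and 2 higher, with a median of -0.54, beside 58.1% of all genes called, 29.0% lower and 29.1% higher. C24 and MS177N1, compared with each other, differed for 0 of 52 members by limma, beside 0.0141% of all genes (2); 1 gene, CHAF1B (0.13, SE 0.06), had an unadjusted p under 0.05, and limma-voom also called 0, with 1 at an unadjusted p under 0.05. Their 95% intervals stayed within 0.5 of 0 for 51 members, and POLE2 was again the exception (-0.635 to 0.31). Of all 14164 genes tested, 9382 had such an interval in this pair and 634 had an unadjusted p under 0.05 by limma. In all, 6 pairs were compared, and adjusting over all 6 pairs together left 0 members called in each pair without MS177. The 3 comparisons with MS177 share its libraries: 43 members were lower in each, as were 3569 of the 14164 genes tested. The call differed between the 3 for 5 of the 52 members, ORC2, ORC5, GINS3, GINS4 and PRIM1, and for 2434 of the 14164 genes. PRIM1 was higher against MS177N1 (0.33) and C24 (0.36) but not called against DMSO (0.23), and ORC5 was higher against MS177N1 (0.22) but not against C24 (0.19) or DMSO (0.13). GINS3 and ORC2 were lower against C24 (-0.29 and -0.25) only, and GINS4 was lower against DMSO (-0.32) and MS177N1 (-0.37) but not C24 (-0.205). Among ORC subunits called, the largest limma adjusted p was 0.0474 against MS177N1 and 0.04 against C24. The 3 members higher against MS177N1 became 2 with upper-quartile scaling and 1 without the trend and robust options, and stayed 3 with limma-voom.

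**Figure D4:**
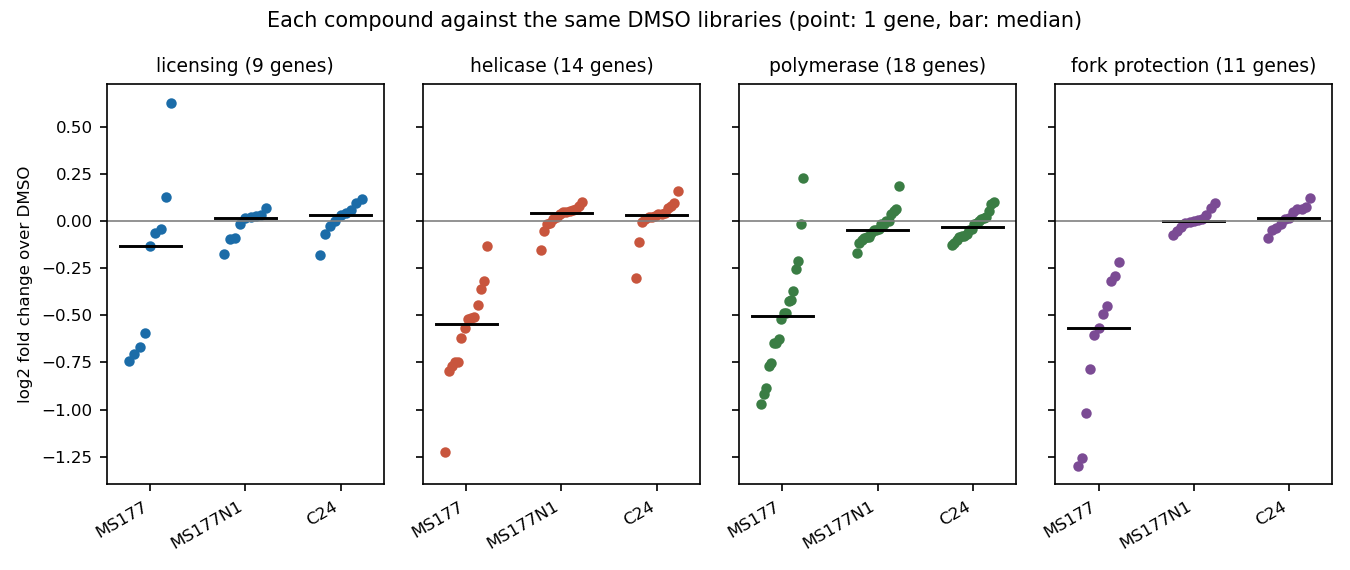
Log2 fold change over DMSO (y axis) of each gene with MS177, MS177N1 and C24, in 4 panels by role; bars are medians. The 3 columns share the same 2 DMSO libraries, so they are not independent; with MS177N1 and C24 all points lie between -0.30 and 0.185, and with MS177 they reach -1.30.

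Other genes of the replication pathway were counted from lists chosen with earlier results known. Of 45 further replication genes tested, 25 fell, 2 rose and 18 were not called in MS177 against DMSO. Among all genes tested 29.0% fell and 28.9% rose. The median log2 fold change was -0.28 over the 45 genes, beside 0.004 over all genes. UHRF1, which brings the methyltransferase DNMT1 to newly copied DNA, averaged 1793 ± 129.9 normalized reads in MS177 and 5089 ± 20.1 in DMSO (SD, n = 2 each; log2 fold change -1.51, SE 0.055, limma adjusted p = 5.4e-12). NASP, a histone chaperone, averaged 1380.5 ± 38.3 normalized reads in MS177 and 3853 ± 80.5 in DMSO (SD, n = 2 each; log2 fold change -1.48, SE 0.05, limma adjusted p = 3.15e-12). The 2 that rose, named after their values were seen, were POLD4 (0.81, SE 0.09), the small subunit of polymerase delta, and HUS1 (0.73, SE 0.10), a checkpoint clamp subunit. POLD1, POLD2 and POLD3 fell in the same comparison.

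Of 11 genes that supply deoxynucleotides, 8 fell, 1 rose and 2 were not called, with a median of -0.52. The shares of all genes tested in MS177 against DMSO, for this and the next list, were 29.0% lower and 28.9% higher. DCTPP1, which hydrolyses dCTP, averaged 1262 ± 108.5 normalized reads in MS177 and 2816 ± 158 in DMSO (SD, n = 2 each; log2 fold change -1.16, SE 0.065, limma adjusted p = 6.35e-10). RRM2, the small subunit of ribonucleotide reductase, averaged 11361 ± 56 normalized reads in MS177 and 21458 ± 209 in DMSO (SD, n = 2 each; log2 fold change -0.92, SE 0.04, limma adjusted p = 1.91e-11). The 1 that rose, named after its value was seen, was RRM2B (0.90, SE 0.13), the p53-inducible form of that reductase subunit. Of 16 genes that mark cell-cycle state, 11 fell, 2 rose and 3 were not called, with a median of -0.425. CDKN1A, the inhibitor of cyclin-dependent kinases, averaged 5162 ± 402 normalized reads in MS177 and 1097 ± 69.2 in DMSO (SD, n = 2 each; log2 fold change 2.23, SE 0.07, limma adjusted p = 9.85e-13). E2F7, a repressor of E2F targets, averaged 2527 ± 60.2 normalized reads in MS177 and 982 ± 39.7 in DMSO (SD, n = 2 each; log2 fold change 1.36, SE 0.07, limma adjusted p = 2.97e-10), while CCNE1, the cyclin of entry into S phase, averaged 358.5 ± 18.9 normalized reads in MS177 and 861 ± 144 in DMSO (SD, n = 2 each; log2 fold change -1.25, SE 0.10, limma adjusted p = 4.45e-08). In MS177N1 and C24 against DMSO, 0 genes of these 3 lists were called by limma, beside 0.0353% and 0.0918% of all genes tested.

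Each library held between 20000665 and 26619099 reads in listed genes, and the first principal component (63.6% of the variance) set both MS177 libraries apart from the other 6. Of 12 plasma-cell markers 11 were listed, and MM1.S expressed them in every group, with summed levels of 130756 to 133474 normalized reads in MS177 and 206679 to 206955 in DMSO; 8 fell and 1 rose, and CD27 was not listed. T and NK cell markers, 3 of 8 listed, summed to 38.35 to 47.15 in MS177 and 75.95 to 109.0 in DMSO; both genes tested fell, and CD3D, CD3G, CD4, NKG7 and KLRD1 were not listed. Monocyte and granulocyte markers, 6 of 10 listed, summed to 1592 to 1728.5 in MS177 and 300.5 to 377.8 in DMSO. All 4 of them that were tested rose, most of the sum being CD68, a lysosomal protein, at 1528 in MS177 and 319 in DMSO; LYZ, S100A8, MPO and ELANE were not listed. Stromal and epithelial markers, 9 of 10 listed, summed to 5232 to 5540.2 in MS177 and 6779 to 6786 in DMSO, most of it VIM; 2 rose and 2 fell. Beside these marker counts, 29.0% of all genes tested fell and 28.9% rose in MS177 against DMSO. The part of the marker shifts in the replication result was not tested.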

How the data were processed

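RNA-seq values of 8 libraries were analysed, 2 for each of 4 groups. Per the labels' protocols, the library kit was NEBNext Ultra II. Tools named in the submitters' processing notes, without roles, are DESeq2 1.38.2, Salmon 0.1.19 and STAR 2.4.2, with hg19 as genome build; whether counting used strand is not given in the sources used here. The authors deposited log2 values that have the form of a variance-stabilizing transformation. Inverting it gave whole reads within 0.01 for 130360 of 130360 values. Reads divided by the authors' size factors are called normalized reads. A gene was kept when 2 libraries or more held 10 reads, scaled to the median library, and all libraries together held 15. Their log2(normalized reads + 1) were fitted with limma 3.58.1 (trend and robust, statmod 1.5.0, R 4.3.3), with all 4 groups in 1 fit and Benjamini-Hochberg adjustment over 14164 genes. A fold change on that scale understates the change of low genes.

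On data simulated with the same groups and libraries, the test of MS177 against DMSO found 38.4% of 1.25-fold, 56.8% of 1.5-fold and 75.2% of 2-fold changes. Summed over repeated simulated sets of 14164 genes, it made 30 false calls in 69820 tests of unchanged genes. Only 250 changes were made at each fold over all these sets together, in genes drawn at random over all expression levels. In the data 57.9% of genes were called. The adjustment was therefore stricter in the simulation, and these rates do not describe the members. Libraries of a group differed by more than counting noise. The chi-square per degree of freedom between them was 8.33 for MS177, 6.34 for DMSO, 3.17 for C24 and 2.56 for MS177N1. The fit shares the estimate of spread over the 4 groups, so its SEs do not follow these differences. The members and lists were chosen with earlier results of these data known. Values in every library are given for the 4 called members of each role with the largest change, for members called against most of their role, and for any called with MS177N1 or C24; uncalled members are named with their change; of the other lists, the 3 called genes with the largest change are named, except 2 that are not reported here.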

Additional observations from a re-analysis of the deposited data

How the results depend on the processing

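The members' counts of calls in MS177 against DMSO ranged from 40 to 49 lower and 1 to 2 higher over the alternatives, and 0 members were called in MS177N1 against DMSO, C24 against DMSO or C24 against MS177N1 under any alternative run. Of the comparisons of a member's change with its value under an alternative, 1061 kept direction and call, 17 lost the call, 8 gained it and 6 changed sign, all 6 in genes that were not called. With total-read scaling, ORC3 was 0.046, CDT1 0.02 and RFC1 0.069. Leaving out a library moved ORC3 between -0.135 and 0.058 (without the second DMSO library) and RFC1 between -0.066 and 0.034 (0.034 without the first MS177 library, 0.033 without the second DMSO library); the cause was not tested.

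Removing the trend over length and GC, in the 12577 genes with both known, gave a median of -0.119 over those genes. The members' median was -0.674, or -0.556 relative to those genes (-0.525 relative to all genes as reported). That setting also re-centred each library, and the part of re-centring in these shifts was not tested. It called 49 members lower and, of the 12577 genes, 3135 higher and 5158 lower (37.8% of calls higher, against 49.9% as reported). Over all genes the calls in MS177N1 against DMSO numbered 5, and 3 with total-read scaling, 8 with a pseudocount of 8, 8 with limma-voom, 8 on the deposited values, 0 without the trend and robust options, 17 with only the 2 groups compared and 167 adjusted over all 6 comparisons, with 0 to 19 when a library was left out. In C24 against DMSO the 13 calls became 1 without the trend and robust options and 211 over all 6 comparisons, with 10 to 28 when a library was left out. In C24 against MS177N1 the 2 calls became 28 with only the 2 groups, 6 with the length and GC trend removed and 155 over all 6 comparisons, with 0 to 13 when a library was left out. Correlations of same-numbered deviations over the genes tested lay between -0.062 and 0.060. Counting noise enters them, so they do not settle whether replicate numbers pair the libraries. With the replicate block, calls over all genes were 11 in MS177N1 against DMSO and 20 in C24 against DMSO, and PRIM1 passed as higher (adjusted p = 0.0239) in MS177 against DMSO. POLE2, with the fewest reads among the members, had the widest interval.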

Other observations

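Some replication genes share a promoter region with a gene read in the opposite direction. A protein-coding partner starting within 1000 bases was found for 14 of 45 members with a window (31.1%), against 1545 of 9472 tested protein-coding genes (16.3%). In MS177 against DMSO 3 of the 14 partners rose, 5 fell and 6 were not called. Among all genes tested 28.9% rose and 29.0% fell, so the partners' counts are not read as a result. TIPIN fell (-1.30) while its partner MAP2K1, a kinase of the MAP kinase pathway, rose (0.31, SE 0.07), averaging 2603 ± 250 normalized reads in MS177 and 2098 ± 114 in DMSO (SD, n = 2 each). PCNA fell (-0.89) while CDS2, an enzyme of phospholipid synthesis, rose (0.27, SE 0.06). ORC4 rose (0.63) beside MBD5, which rose as well (0.73, SE 0.13). ORC1 fell (-0.59) while PRPF38A was not called (0.09, SE 0.055). These genes were chosen after their values were seen, and reads of overlapping opposite-strand starts could be shared where counting ignores strand. In GENCODE v29, 7.69% of the exonic bases of ORC4 overlapped other genes (ACVR2A and MBD5). The exons of TIPIN, PCNA and ORC1 had 0 overlapped bases there, but the annotation used for counting is not given.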
